A study of Mus musculus with 16 samples.

Results

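Gene expression was compared between 4 arrays of unstimulated NFAT5 knockout (NFAT5 KO) macrophages and 4 arrays of unstimulated wild-type (WT) macrophages. These are the arrays titled KO1 to KO4 and WT1 to WT4, 8 of the 16 arrays of the study. All 16 hold total RNA of bone-marrow-derived macrophages from mice of the 129sv background. The other 8 are WT and KO cells stimulated with LPS, a component of the bacterial cell wall, in 4 arrays each, and they serve here to ask whether a difference was also seen in stimulated cells. They also enter the shared estimate of the spread and the choice of each gene's probe set. The dose of LPS, the time with it, the age of the mice, the part of Nfat5 that the KO allele lacks and the cells in which it is lost go unstated in the sources used here. The labels do not tie arrays to separate mice or cultures. A p-value therefore reflects only how far these arrays spread, and that spread may be technical. All 19937 genes with a probe set of their own were compared, each by the probe set with its highest mean level in the 16 arrays.

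NFAT5 is a transcription factor of the Rel family, which also holds NF-kB and the calcium-regulated NFAT proteins. It is best known from the kidney, where salt and urea concentrate the tissue fluid. There it switches on carriers and enzymes that fill cells with small organic solutes such as betaine, myo-inositol, taurine and sorbitol, so that water is held without raising the salt inside the cell. Bone-marrow-derived macrophages are phagocytes grown in culture from marrow precursors. They carry pattern receptors, show antigen on MHC molecules and answer interferons, and the comparison asks how their resting expression depends on NFAT5.

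Levels are log2 values as the authors deposited them, so a difference of 1 is a 2-fold change, differences are KO minus WT, and a gene is called where limma's adjusted p is under 0.05. Array medians lay between 6.761 and 6.864, and the 8 arrays correlated by 0.981 to 0.995 within a genotype and by 0.977 to 0.994 between genotypes. The first principal component, with 30.5% of the variance, did not separate the genotypes. The second, with 23.5%, ran from -4.1 to 24.3 in WT and from -24.4 to -0.6 in KO arrays, a small overlap. The cells carried macrophage markers: Csf1r, Cd68, Adgre1 and Lyz2 averaged 13.17, 13.15, 13.14 and 13.69 in WT cells and differed by -0.12, 0.05, -0.09 and -0.03 in KO cells. Of 9 macrophage markers measured, 7 lay below 0, and Cd14 and C5ar1 were called lower. The mean level of the 9 was 12.16 to 12.31 in WT arrays and 11.87 to 12.03 in KO arrays, with no overlap. None of the 59 measured markers of B cells, T and NK cells, neutrophils, mast cells, stroma, erythroid cells and osteoclasts was called in limma (4 had an unadjusted p under 0.05). Sex-linked transcripts differed between the genotypes. Xist, made from the inactive X chromosome, lay between 11.90 and 12.50 in the 4 WT arrays and was 12.37 in KO array 4, against 5.67 to 5.85 in KO arrays 1 to 3. The Y-linked Kdm5d lay between 5.2 and 5.39 in WT arrays and was 5.47 in KO array 4, against 7.70 to 8.46 in KO arrays 1 to 3. Among unstimulated arrays, low Xist with high Kdm5d was thus met only in KO cells. This split nearly coincides with genotype, so their parts in the differences cannot be fully told apart. In a fit with a term for the arrays that have more Kdm5d than Xist, 203 genes were lower and 156 higher in KO cells, and 103 of the 200 genes that were called without this term were among them.

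Nfat5 itself read 9.15, 9.41, 9.34 and 9.67 in WT arrays 1 to 4 and 8.93, 9.03, 9.20 and 8.99 in KO arrays 1 to 4. The lowest WT array lay below the highest KO array. The log2 difference was -0.36 (exact permutation test, two-sided, p = 0.0571), where 0.0286 is the smallest that 4 against 4 arrays allow. With each array centred on its median the difference was -0.39 and the exact permutation p was 0.0286. Since the deleted part is not known, the signal that remains there is no check of the genotype.

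Most of the genes that differed were lower in KO cells. By this rule 200 of 19937 genes (1%) differed, 172 lower in KO cells (0.863%) and 28 higher (0.14%). Of these, 65 were at least 2-fold lower (0.326%) and 3 at least 2-fold higher (0.015%), and 11 and 1 passed 4-fold. The median log2 difference was -0.85 among the lower and 0.74 among the higher genes, against 0.0043 over all genes. The 4 KO arrays lay wholly below the 4 WT arrays for 163 of the 172 lower genes, a separation met by 2.86% of all genes, and wholly above for 25 of the 28 higher genes, against 1.47% of all genes.

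The calls were of unequal weight. With the replicate number as a block, 256 genes were lower (1.28%) and 71 higher (0.356%), and the 200 were all among them. With only the 8 unstimulated arrays, 91 genes were called, 80 lower and 11 higher, and 87 of the 200 were among them. With the block in those 8 arrays 138 of the 200 were called. Of the 200, 98 were called in each of the 8 fits that leave out 1 unstimulated array, 91 of them lower, and 34 were called in each of the 22 alternative fits that tested them, the fit of brighter genes leaving some out. Without WT array 1, KO array 1 or WT array 2 the count of calls was 128, 116 and 116, and the count of higher genes ran from 11 (without WT array 1 or KO array 3) to 45 (without WT array 4). All 200 kept their direction in every alternative fit in which they were tested. Arrays numbered 1 stood apart: WT array 1 was the highest WT array for 91 of the 172 lower genes, KO array 1 was the lowest KO array for 101 of them, and without the 4 arrays of that number 60 genes were called lower and 5 higher.

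**Figure D1:**
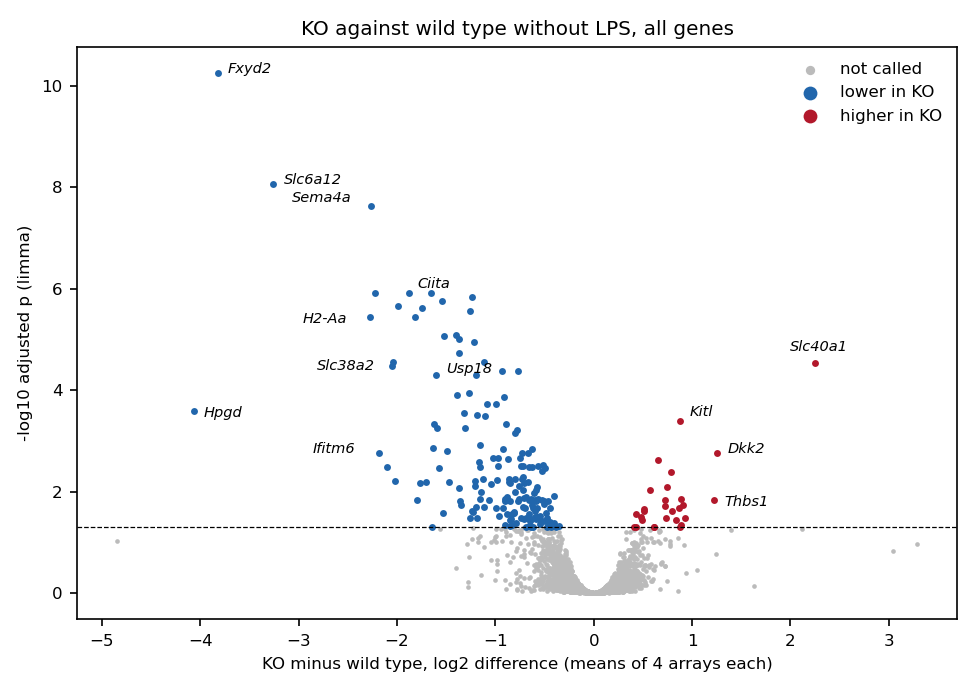
Log2 difference of KO minus WT (x axis, means of 4 unstimulated arrays each) against the negative log10 of limma's adjusted p (y axis) for 19937 genes. Blue points are the 172 genes called lower, red the 28 called higher, and the dashed line is an adjusted p of 0.05. Lower genes outnumber higher ones and reach further from 0, with Hpgd at -4.07 and Fxyd2 at -3.82.

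The osmolyte carriers were among the steepest falls. Slc6a12, the betaine carrier of kidney cells and a textbook NFAT5 target, read 10.78, 10.43, 10.53 and 9.94 in WT arrays 1 to 4 and 7.54, 7.14, 6.96 and 7.01 in KO arrays 1 to 4. The groups lay more than 2 log2 units apart, and the log2 difference was -3.26 ± 0.181 (SE, limma adjusted p = 8.59e-09), a 9.58-fold fall. Slc5a3, which carries myo-inositol, read 8.80, 8.55, 8.67 and 8.74 in WT arrays 1 to 4 and 6.36, 7.01, 6.86 and 6.59 in KO arrays 1 to 4, and differed by -1.99 ± 0.17 (SE, limma adjusted p = 2.21e-06). Slc38a2, which takes up small neutral amino acids, read 11.60, 11.65, 11.51 and 11.33 in WT arrays 1 to 4 and 9.36, 9.84, 9.65 and 9.05 in KO arrays 1 to 4, and differed by -2.05 ± 0.222 (SE, limma adjusted p = 3.34e-05). In each of these 3 genes every KO array was at least 1 log2 unit below every WT array, and the calls were made in all 22 alternative fits. The taurine carrier Slc6a6 averaged 12.60 ± 0.0617 in WT and 12.34 ± 0.0799 in KO cells (SD, n = 4 each). Its arrays did not overlap, but its difference of -0.26 did not pass the test (limma adjusted p = 0.255).

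Of 15 measured genes on the list of osmolyte transport and hypertonic stress, 3 fell, 0 rose and 12 were not called, and 11 lay below 0. The median difference was -0.200. Of all 19937 genes, 0.863% were called lower and 9705 lay below 0. All 3 calls lay among the 6 osmolyte carriers and enzymes. The other 9 members, chaperones and other genes linked to NFAT5, had a median of -0.038: Hspa1a and Hspa4l, heat shock chaperones, differed by -0.38 and -0.06, the salt-responsive kinase Sgk1 by -0.04, and the water channels Aqp1 and Aqp2 by 0.01 and 0.31. The calcium-binding S100a4 differed by -1.0 ± 0.254 (limma adjusted p = 0.0782) and was called with the replicate block (adjusted p = 3.51e-05). No call was made among the 16 measured channels, cotransporters and kinases of cell volume and salt, whose median difference was -0.018. At an unadjusted p under 0.05, limma gave 1 of the 16.

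The promoter of Slc6a12 is shown because TGGAAA is the core that NFAT5 and other NFAT proteins bind. The sequence, from RefSeq on GRCm38.p6, covers the 250 bases before 1 of the 5 starts listed for the gene (chr6:121342324-121342573, plus strand). It is printed 5′ to 3′ along the gene with the match in capitals.
Slc6a12: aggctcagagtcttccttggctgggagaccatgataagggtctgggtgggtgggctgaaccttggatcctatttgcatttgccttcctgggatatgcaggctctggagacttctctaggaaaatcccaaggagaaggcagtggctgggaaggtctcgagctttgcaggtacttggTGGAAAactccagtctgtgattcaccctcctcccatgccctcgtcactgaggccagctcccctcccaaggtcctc
The match began 75 bases before the start. Of the 5 listed promoters of Slc6a12, only the 1 shown held TGGAAA, and it was chosen for that. The listed promoters of Slc5a3 and Slc38a2 held no match. Searched on both strands in 300 bases around the start (250 before and 50 after), TGGAAA stood in promoters of 38 of 131 lower genes with a listed promoter (29%), 4 of 20 higher genes (20%) and 3393 of 15562 genes overall (21.8%). A core this short is frequent, and a match is a description of letters, not a bound site.

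Fxyd2 gave the smallest p of all genes. It encodes a small membrane protein that modulates the sodium pump in kidney tubules. It read 11.21, 10.66, 10.94 and 10.98 in WT arrays 1 to 4 and 7.12, 7.20, 6.97 and 7.21 in KO arrays 1 to 4. The WT arrays were all high and the KO arrays all low, a 14.1-fold fall (log2 difference -3.82 ± 0.152 SE, limma adjusted p = 5.58e-11). None of the other 6 FXYD genes measured was called: Fxyd5, at 13.42 ± 0.119 in WT and 13.41 ± 0.13 in KO cells (SD, n = 4 each), differed by -0.01. Of the pump's own subunits, Atp1b3 differed by -0.32 (limma adjusted p = 0.0862), and Atp1b1 and Atp1b2 by 0.23 and 0.07.

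Of the genes that show antigen to helper T cells, the coactivator and most chains fell. Ciita, the coactivator that switches on MHC class II genes, read 9.44, 9.82, 9.20 and 9.15 in WT arrays 1 to 4 and 7.24, 7.40, 7.90 and 7.54 in KO arrays 1 to 4. Every KO array was at least 1 log2 unit below every WT array (difference -1.88 ± 0.15 SE, limma adjusted p = 1.19e-06). Of the chain genes, H2-Aa read 12.73, 12.78, 12.03 and 11.95 in WT arrays 1 to 4 and 9.90, 10.50, 10.12 and 9.87 in KO arrays 1 to 4, and differed by -2.28 ± 0.206 (SE, limma adjusted p = 3.65e-06). H2-Eb1 read 12.26, 12.60, 11.76 and 11.52 in WT arrays 1 to 4 and 9.79, 10.29, 10.18 and 9.72 in KO arrays 1 to 4, a difference of -2.04 ± 0.217 (SE, limma adjusted p = 2.73e-05), and H2-Ab1 differed by -1.81 ± 0.164 (SE, limma adjusted p = 3.65e-06). WT arrays 1 and 2 were the higher WT arrays for all 3 chain genes, and the genotypes did not overlap for any of them.

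Cd74, the invariant chain that escorts class II molecules, averaged 13.04 ± 0.226 in WT and 11.67 ± 0.239 in KO cells (SD, n = 4 each), a difference of -1.37 ± 0.141 (SE, limma adjusted p = 1.89e-05). H2-DMa, which helps peptides load, differed by -1.63 ± 0.22 (SE, limma adjusted p = 0.00046). KO array 1 was its lowest array, at 8.07. In all, 6 of 19 measured class II genes fell and 0 rose, 15 lay below 0, and the median difference was -0.139. Among all 19937 genes, 0.863% were called lower and 9705 lay below 0. The 6 calls held in each of the 8 fits without 1 array and with the term for sex-linked transcripts. With that term and the block together, and with only the arrays that have more Xist than Kdm5d, 5 of the 6 were called. The 13 not called include the regulators Rfx5, Rfxank and Rfxap (-0.10, -0.22 and -0.04) and the lysosomal enzymes Ctss, Ifi30 and Lgmn (0.23, 0.01 and 0.06).

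Among class I genes, which show antigen to killer T cells, 2 of 15 fell, against 0.863% of all genes. Tap1, the peptide pump of the endoplasmic reticulum, differed by -0.92 ± 0.138 (SE, limma adjusted p = 0.00143), and the nonclassical chain gene H2-M3 by -0.61 ± 0.114 (SE, limma adjusted p = 0.0108). The call of H2-M3 was lost with the term for sex-linked transcripts (limma adjusted p = 0.0798). With that term and the block together neither gene was called (0.218 and 0.335). The other 13 were not called, and the list's median was -0.352. At an unadjusted p under 0.05, limma gave 11 of the 15 as lower and 0 as higher.

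**Figure D2:**
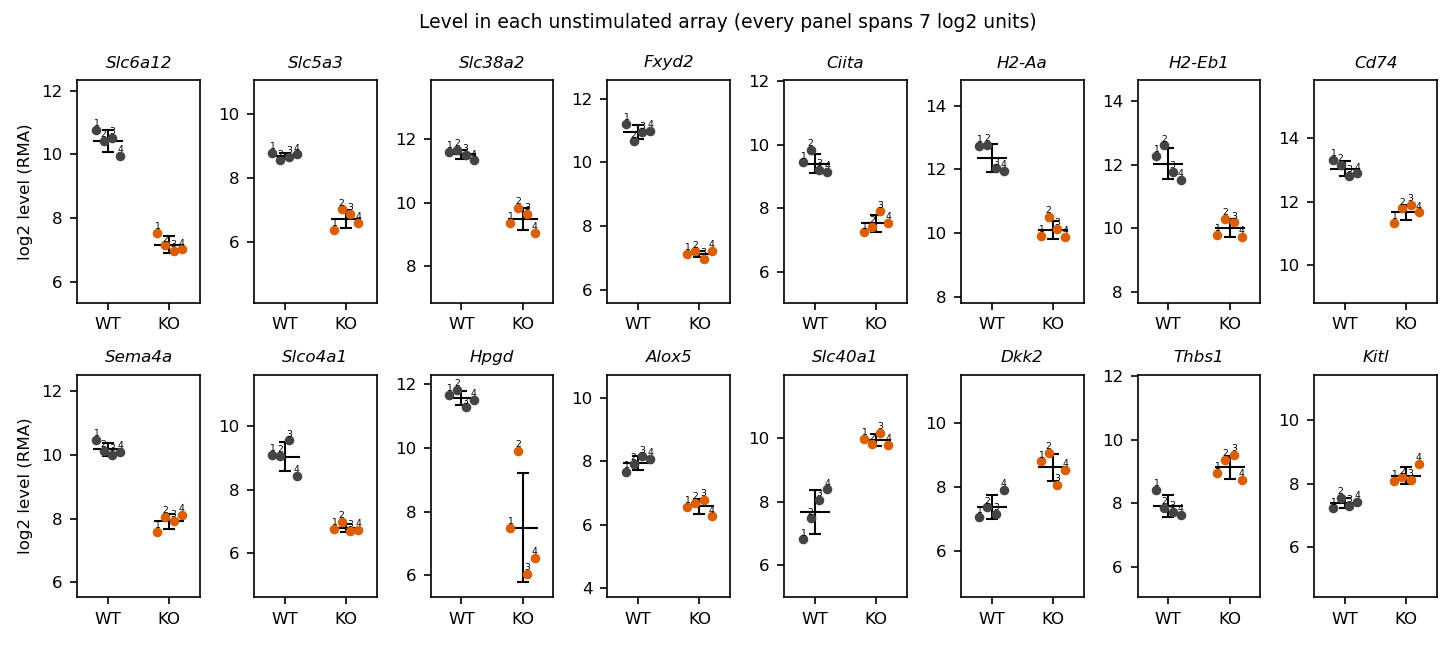
Log2 level (y axis) of 16 genes in each unstimulated array, WT in grey and KO in orange, with the array number beside each point, a bar at the mean and whiskers of 1 SD (n = 4). The groups do not overlap for any of the 16 genes, and Hpgd spreads most in KO cells, from 6.05 to 9.91.

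Markers of monocytes moved in the same direction and are given here because a bulk sample cannot tell fewer cells of a type from less RNA per cell. Of 7 measured monocyte markers, 3 fell, against 0.863% of all genes. Ccr2, the receptor that draws monocytes out of marrow, read 8.72, 8.90, 7.73 and 8.74 in WT arrays 1 to 4 and 7.07, 7.33, 7.22 and 7.21 in KO arrays 1 to 4 (-1.31 ± 0.181 SE, limma adjusted p = 0.000563). Ms4a4c, a membrane protein of monocytes, differed by -2.11 ± 0.346 (SE, limma adjusted p = 0.00328), and F13a1, a clotting factor subunit, by -1.18 ± 0.26 (SE, limma adjusted p = 0.0329). The call of F13a1 was lost without WT array 1, 2 or 4 and without KO array 1 or 3 (highest limma adjusted p 0.124, without KO array 3). That of Ms4a4c was lost with the term for sex-linked transcripts (limma adjusted p = 0.0572). The other 4, Plac8, Vcan, Hp and Cd177, lay between 5.36 and 7.19 in WT cells and differed by -0.17, 0.05, 0.02 and -0.09. The mean level of the 7 markers was 7.36 to 8.05 in WT arrays and 6.81 to 7.26 in KO arrays, with no overlap. Mean levels of several other lists, macrophage markers among them, did not overlap either. Among 17 dendritic cell markers, the transcription factor Irf4 fell (-0.85 ± 0.152 SE, limma adjusted p = 0.0069) and the others were not called. Irf4 was not called with only the 8 unstimulated arrays (limma adjusted p = 0.0849) or without the arrays numbered 1 (0.124). With the term for sex-linked transcripts it was not called either (0.0956). Flt3, Zbtb46 and Clec9a averaged 5.89, 6.63 and 4.63 in WT cells, at or below the array medians. The part of monocytes or dendritic cells in the class II and interferon results was not tested.

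Interferon-stimulated genes gave more falls than any other of the 41 lists. Of 50 measured genes of the interferon system, 20 fell, 0 rose, 46 lay below 0 and the median difference was -0.549. Over all genes, 0.863% were called lower and 9705 of 19937 lay below 0. By role, 14 of 25 antiviral effectors and feedback genes fell, 6 of 16 sensors and transcription factors, 0 of 5 ligand and receptor genes and 0 of 4 genes of the Ifi200 family. Usp18, which shuts down interferon receptor signalling, read 11.31, 10.89, 10.59 and 10.37 in WT arrays 1 to 4 and 8.67, 9.56, 9.10 and 9.42 in KO arrays 1 to 4, and differed by -1.61 ± 0.182 (SE, limma adjusted p = 5.13e-05). Irf7, the transcription factor that amplifies the response, differed by -1.07 ± 0.21 (SE, limma adjusted p = 0.0145), a call lost without KO array 1 (adjusted p = 0.0559). Stat2 and Irf9, partners in the complex that carries the signal to the nucleus, differed by -0.74 and -0.36. The RNA sensors Ifih1, Ddx58 and Dhx58 differed by -0.80, -0.69 and -0.88. The calls of Stat2, Irf9 and Dhx58 were lost without WT array 1 and without KO array 1, among others (highest adjusted p 0.135, 0.173 and 0.110), and that of Ddx58 without KO array 1 (0.0573) or WT array 2. Ifnb1, at 5.54 in WT cells, and the receptor genes Ifnar1 and Ifnar2 differed by 0.01, -0.08 and -0.04, none of them called (1 of the 5 ligand and receptor genes and 2 of the 4 Ifi200 genes had an unadjusted p under 0.05 in limma).

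The Ifit genes show how the arrays lay. Ifit1, whose protein recognises viral RNA, read 11.30, 10.47, 10.02 and 9.70 in WT arrays 1 to 4 and 8.72, 9.42, 8.97 and 9.46 in KO arrays 1 to 4, and differed by -1.23 ± 0.26 (SE, limma adjusted p = 0.0252). Ifit3, its partner, differed by -1.35 ± 0.274 (SE, limma adjusted p = 0.0186). Ifit2 read 11.33, 10.11, 9.97 and 9.44 in WT arrays 1 to 4 and 7.88, 9.07, 8.64 and 9.12 in KO arrays 1 to 4, a difference of -1.54 ± 0.329 (SE, limma adjusted p = 0.0268). Within each genotype the arrays numbered 1 were the extremes, WT high and KO low. This held across the group: WT array 1 was the highest WT array for all 20 called interferon genes and KO array 1 the lowest KO array for 17. The mean level of the 50 genes was 10.45, 10.10, 9.95 and 9.85 in WT arrays 1 to 4 and 9.19, 9.66, 9.45 and 9.58 in KO arrays 1 to 4, so the genotypes did not overlap, with 0.19 between the lowest WT and the highest KO array. Such a separation was not particular to this list. Means of the osmolyte, MHC class I and II, Toll-like receptor, NF-kB, lectin, complement and macrophage marker lists did not overlap either. Ifitm6 and Usp18 were called in each of the 8 fits without 1 array, as were Ifih1 and Oasl1, while the calls of Ifit1, Ifit2 and Ifit3 were lost without WT array 1 or 2 and without KO array 1 or 3 (highest adjusted p 0.110, 0.113 and 0.0890).

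The count of interferon calls depended on which arrays entered the fit and on the sex-linked split. With only the 8 unstimulated arrays it was 2, and 5 with the block in them, where 34 and 35 genes of the list were lower at an unadjusted p under 0.05. It was 6 without WT array 1, 4 without KO array 1, 5 without WT array 2, 7 without KO array 3, and 15 to 22 without any 1 of the others. It was 2 without the arrays numbered 1, where the median difference of the 20 genes was -0.58, and 4 with the term for sex-linked transcripts, where it was -0.83. With that term and the block together it was 0 in limma (median difference -0.65, 15 genes of the list lower at an unadjusted p under 0.05), and with only the arrays that have more Xist than Kdm5d, where KO has 1 array whose spread is taken from the other groups, it was 0 again (-0.83, 19 genes). All 20 lay below 0 in each of these fits.

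**Figure D3:**
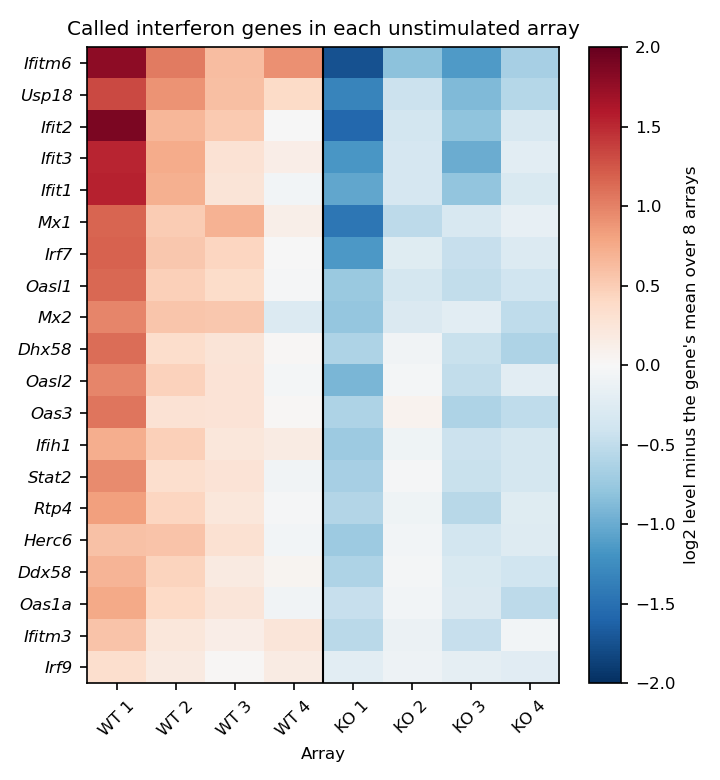
Level of the 20 called interferon genes (rows) in each unstimulated array (columns), as log2 level minus the gene's mean over the 8 arrays, red above and blue below. WT array 1 is the reddest column and KO array 1 the bluest, with Ifitm6 differing most between genotypes (-2.18).

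The promoters of Ifit1 and Ifit3 are shown because both hold 2 copies of the interferon response core. It is GAAA, any 2 bases and GAAA again, or TTTC, any 2 bases and TTTC on the other strand. Both sequences are from RefSeq on GRCm38.p6 and cover the 250 bases before the start, Ifit1 at chr19:34640639-34640888 and Ifit3 at chr19:34583279-34583528, plus strand. They are printed 5′ to 3′ with the cores in capitals.
Ifit1: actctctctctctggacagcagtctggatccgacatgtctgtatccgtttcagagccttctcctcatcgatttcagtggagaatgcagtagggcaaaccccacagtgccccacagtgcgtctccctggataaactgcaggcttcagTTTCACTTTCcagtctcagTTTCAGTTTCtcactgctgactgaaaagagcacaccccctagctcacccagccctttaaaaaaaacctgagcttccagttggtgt
Ifit3: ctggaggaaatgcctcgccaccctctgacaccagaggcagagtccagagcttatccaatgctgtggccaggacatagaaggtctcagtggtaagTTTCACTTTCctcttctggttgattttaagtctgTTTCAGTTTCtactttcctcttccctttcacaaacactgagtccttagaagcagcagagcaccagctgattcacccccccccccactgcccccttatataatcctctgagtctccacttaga
In Ifit1 the cores began 104 and 85 bases before the start, and in Ifit3 156 and 122. In the 300 bases around the start this core stood in 8 of the 15 called interferon genes with a listed promoter (53.3%), in 8 of the 26 uncalled ones (30.8%) and in 605 of 15562 genes overall (3.89%). Outside the interferon list, 10 of 116 lower genes held it (8.62%), and 0 of 20 higher genes did. TGACGTCA, the cyclic AMP response element, stood in 3.05% of lower genes against 2.72% of all genes, and TTCNNNGAA, bound by STAT proteins, in 8.4% against 9.01%. On the interferon list TTCNNNGAA stood in 26.7% of called and 34.6% of uncalled genes.

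Some members of related gene families fell too. The families were chosen after their values were seen. Of 9 Schlafen genes measured, growth and antiviral regulators of myeloid cells, 4 fell. Slfn1 differed by -1.79 ± 0.353 (SE, limma adjusted p = 0.0147), a call lost without KO array 1 (adjusted p = 0.0725) or KO array 3. Slfn4 read 9.41, 8.27, 8.25 and 7.99 in WT arrays 1 to 4 and 6.99, 6.97, 6.99 and 7.0 in KO arrays 1 to 4. It varied in WT cells and hardly at all in the 4 KO arrays (SD 0.0119), a difference of -1.49 ± 0.225 (SE, limma adjusted p = 0.00155). Trim30d, of the TRIM family of ubiquitin ligases, read 9.30, 7.26, 7.18 and 8.48 in WT arrays 1 to 4 and 5.97, 5.98, 5.89 and 6.28 in KO arrays 1 to 4, with WT arrays 1 and 4 far above the other 2, and differed by -2.02 ± 0.357 (SE, limma adjusted p = 0.00606). Both Mx genes, 3 of 5 Ifit genes, 4 of 11 Oas genes, 2 of 3 Phf11 genes, 2 of 10 genes of the Ifi200 cluster and both Tmem176 genes were called lower. So were 2 of 19 Ms4a genes (family median -0.01) and 2 of 16 Ly6 genes (0.03). Over all genes, 0.863% were called lower. The calls of Mx1, Mx2, Oas1a, Oas3, Oasl2, Ifi208, Ly6e and Ly6i were lost without WT array 1 and without KO array 1, among others. Their highest limma adjusted p were 0.104, 0.187, 0.104, 0.167, 0.132, 0.153, 0.191 and 0.166. The genotypes overlapped for Mx2, Oas1a, Oas3 and Ifi208. Phf11a and Phf11d lost their calls without KO array 1, and Ms4a6b without WT array 1. Guanylate-binding proteins and immunity-related GTPases, induced mainly by interferon gamma, had 0 of 8 called in limma, 3 of them with an unadjusted p under 0.05, and a median of -0.332. Near-identical copies in these families can share probes, so the split between their members is uncertain.

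Receptors of microbes fell in part. Cd14, which hands LPS to its receptor, read 11.78, 11.82, 11.69 and 11.85 in WT arrays 1 to 4 and 10.05, 10.81, 10.62 and 10.86 in KO arrays 1 to 4, and differed by -1.20 ± 0.136 (SE, limma adjusted p = 5.13e-05). KO array 1 was lowest, and no KO array reached a WT array. The endosomal nucleic acid receptors Tlr7 and Tlr9 differed by -0.62 ± 0.0938 (SE, limma adjusted p = 0.00144) and by -0.85 ± 0.169 (SE, limma adjusted p = 0.0152). Tlr4 itself differed by -0.47 ± 0.114 (limma adjusted p = 0.0576), and Tlr2, Tlr3 and Tlr8 by -0.13, -0.17 and -0.08. Of 24 genes of Toll-like receptors and their adaptors 3 fell, against 0.863% of all genes, and 0 rose, with a median of -0.150. The call of Tlr9 was lost without KO array 1 (adjusted p = 0.0700) and without WT array 1 or 2. Without the arrays numbered 1, Tlr7 was not called (limma adjusted p = 0.0592).

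All 18 measured genes of the NF-kB pathway lay below 0 in KO cells (median -0.210), as did 9705 of all 19937 genes, and 2 of the 18 were called. Of all genes 0.863% were called lower. At an unadjusted p under 0.05, limma gave 7 of the 18 as lower. Their mean level was 9.26 to 9.40 in WT and 8.76 to 9.16 in KO arrays. Traf1, an adaptor of TNF-family receptors, read 8.32, 8.08, 7.83 and 7.62 in WT arrays 1 to 4 and 6.04, 6.46, 6.27 and 6.11 in KO arrays 1 to 4, a difference of -1.74 ± 0.151 (SE, limma adjusted p = 2.41e-06) with more than 1 log2 unit between the groups. Nfkbiz, a nuclear cofactor of NF-kB, differed by -0.77 ± 0.152 (SE, limma adjusted p = 0.015), and its call was lost without WT array 2 (adjusted p = 0.0629). The subunits Rela, Rel and Nfkb2 differed by -0.17, -0.19 and -0.25, and the inhibitor Nfkbia by -0.16. The promoter of Traf1 is shown as the gene with the smallest p on this list that holds the NFAT core, here TTTCCA on the printed strand (RefSeq, GRCm38.p6, chr2:34961773-34962022, minus strand, in capitals).
Traf1: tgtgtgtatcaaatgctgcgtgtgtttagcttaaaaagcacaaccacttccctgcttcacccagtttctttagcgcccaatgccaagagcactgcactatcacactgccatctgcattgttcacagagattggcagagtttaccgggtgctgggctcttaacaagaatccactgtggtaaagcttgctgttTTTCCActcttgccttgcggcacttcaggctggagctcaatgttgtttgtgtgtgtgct
The match began 59 bases before the start.

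Cytokine genes were nearly all uncalled in resting cells. Of 37 cytokines and receptors 2 fell, against 0.863% of all genes. They were Tnfsf10, the death ligand TRAIL (-1.11 ± 0.228 SE, limma adjusted p = 0.02), and Il21r, a cytokine receptor (-0.76 ± 0.138 SE, limma adjusted p = 0.00765). The call of Tnfsf10 was lost without WT array 1 (adjusted p = 0.0759) or KO array 1. Il21r was not called with only the 8 unstimulated arrays (limma adjusted p = 0.0808) or without the arrays numbered 1 (0.141). Tnf, Il6, Il12b and Il1b differed by -0.04, 0.18, -0.13 and -0.89. Among 32 chemokines and receptors the calls were Ccr2 and C5ar1, the receptor of the complement fragment C5a (-0.72 ± 0.133 SE, limma adjusted p = 0.00947), while Cxcl16 differed by -0.36 (limma adjusted p = 0.195). C5ar1 was not called with only the 8 unstimulated arrays (limma adjusted p = 0.0832) or without the arrays numbered 1 (0.172). The B-cell chemokine Cxcl13 was on no list and was chosen after its values were seen. It read 8.65, 9.27, 7.87 and 7.58 in WT arrays 1 to 4 and 6.95, 6.90, 5.90 and 6.58 in KO arrays 1 to 4, and differed by -1.76 ± 0.316 (SE, limma adjusted p = 0.00686). Its call was lost without the arrays numbered 1 (limma adjusted p = 0.0887) and with the sex-linked term and the block together (0.106).

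Enzymes of lipid mediators were among the falls. Hpgd, which inactivates prostaglandins, read 11.66, 11.82, 11.28 and 11.52 in WT arrays 1 to 4 and 7.50, 9.91, 6.05 and 6.55 in KO arrays 1 to 4. Every KO array was below every WT array, but the KO arrays spanned 3.86 log2 units, so the 16.8-fold fall has a wide error (-4.07 ± 0.522 SE, limma adjusted p = 0.000253). Alox5, the lipoxygenase that starts leukotriene synthesis, read 7.65, 7.92, 8.15 and 8.07 in WT arrays 1 to 4 and 6.56, 6.69, 6.79 and 6.26 in KO arrays 1 to 4, and differed by -1.37 ± 0.134 (SE, limma adjusted p = 9.96e-06). Pla2g4a, which frees arachidonic acid from membranes, differed by -1.02 ± 0.16 (SE, limma adjusted p = 0.00214), and Acod1, which makes itaconate, by -1.14 ± 0.215 (SE, limma adjusted p = 0.0104). The call of Acod1 was lost with only the 8 unstimulated arrays (limma adjusted p = 0.12), also with the block in them (0.0819), and with the term for sex-linked transcripts (0.0732). These were the 4 calls among 19 eicosanoid, nitric oxide and itaconate enzymes, where 0.863% of all genes were called lower. Nos2, Ptgs2 and Arg1 differed by -0.01, 0.11 and 0.15, none called.

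Of 12 surface lectins 3 fell and 0 rose, against 0.863% and 0.14% of all genes. At an unadjusted p under 0.05, limma gave 10 of the 12 as lower. Clec10a, a galactose lectin also counted as a marker of alternative activation, read 8.44, 7.73, 7.10 and 7.34 in WT arrays 1 to 4 and 5.81, 5.79, 6.35 and 6.12 in KO arrays 1 to 4, and differed by -1.64 ± 0.244 (SE, limma adjusted p = 0.00137). Clec4a1 and Clec5a differed by -0.88 and -1.26. Both calls were lost without WT array 1 or 2 and without KO array 1 (highest adjusted p 0.0584 and 0.113), and that of Clec5a also without WT array 3, KO array 3 or KO array 4. In limma no call was made among the 9 TREM and Fc receptor genes (median -0.015, 2 at an unadjusted p under 0.05), where Fcgr1 differed by -0.72 (limma adjusted p = 0.0514), nor among 16 costimulatory and checkpoint genes (median -0.007, 4 at an unadjusted p under 0.05). Of 12 complement genes, Cfb (-1.21 ± 0.213 SE, limma adjusted p = 0.00606) and C1qa (-0.63 ± 0.123 SE, limma adjusted p = 0.0145) fell, and the call of C1qa was lost without WT array 1 (adjusted p = 0.0593) or WT array 2. The call of Cfb was lost with only the 8 unstimulated arrays (limma adjusted p = 0.0721) and with the term for sex-linked transcripts (0.0788). C1qb and C1qc, which assemble with C1qa, differed by -0.10 and -0.28.

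Several of the falls that every alternative fit called lay outside these groups. Sema4a, a semaphorin that signals to T cells, read 10.47, 10.13, 10.01 and 10.11 in WT arrays 1 to 4 and 7.58, 8.06, 7.92 and 8.11 in KO arrays 1 to 4, a difference of -2.26 ± 0.137 (SE, limma adjusted p = 2.35e-08) between groups whose SD was 0.199 in WT and 0.24 in KO cells (n = 4 each). None of the other 18 semaphorin, plexin and neuropilin genes was called. Slco4a1, an organic anion carrier, read 9.09, 9.05, 9.55 and 8.44 in WT arrays 1 to 4 and 6.77, 6.99, 6.71 and 6.73 in KO arrays 1 to 4, and differed by -2.23 ± 0.177 (SE, limma adjusted p = 1.19e-06). It was the 1 call among 8 such carriers. Slc2a6, a glucose-family carrier, differed by -0.99 ± 0.124 (SE, limma adjusted p = 0.000189) and was the 1 call among 15 glycolysis genes, whose median was -0.110.

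Others were chosen after their values were seen, from the 34 genes called in every alternative fit that tested them. Ndrg2, of the NDRG family of stress-regulated proteins, differed by -1.65 ± 0.133 (SE, limma adjusted p = 1.19e-06), Dram1, a p53 target of the lysosome, by -1.54 ± 0.129 (SE, limma adjusted p = 1.71e-06), Btg2, an antiproliferative gene, by -1.22 ± 0.121 (SE, limma adjusted p = 1.14e-05), and Med22, a Mediator subunit, by -1.23 ± 0.101 (SE, limma adjusted p = 1.49e-06). Cd72, an inhibitory lectin best known from B cells, averaged 12.70 ± 0.2 in WT and 11.30 ± 0.281 in KO cells (SD, n = 4 each), a difference of -1.39 ± 0.168 (SE, limma adjusted p = 0.000122). Arhgef6, an X-linked exchange factor for Rac, read 10.13, 10.06, 10.07 and 10.32 in WT arrays 1 to 4 and 8.40, 8.51, 8.71 and 8.86 in KO arrays 1 to 4, and differed by -1.52 ± 0.147 (SE, limma adjusted p = 8.7e-06). KO array 4 was its highest KO array and still lay 1.20 below the lowest WT array.

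The same 34 held 2 membrane channels: Tmem38b, which passes potassium ions across the endoplasmic reticulum, differed by -1.40 ± 0.135 (SE, limma adjusted p = 8.3e-06), and the potassium channel gene Kcnj2 by -1.05 ± 0.188 (SE, limma adjusted p = 0.00698). They also held signalling genes. Plcb4, a phospholipase that G proteins activate, differed by -1.32 ± 0.171 (SE, limma adjusted p = 0.000283), the adaptor Shb by -1.12 ± 0.118 (SE, limma adjusted p = 2.73e-05), Nf2, the tumour suppressor merlin, by -0.78 ± 0.109 (SE, limma adjusted p = 0.000615), and the palmitoyltransferase Zdhhc14 by -1.10 ± 0.145 (SE, limma adjusted p = 0.000322). Spaca6, Borcs6, Plxdc2 and Fam174a differed by -1.26, -0.93, -0.91 and -0.89.

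Sialic acid lectins and the phagocyte oxidase also held falls, likewise chosen after their values were seen. Among all genes, 0.863% were called lower. Siglec1, the sialoadhesin of tissue macrophages, differed by -1.08 ± 0.136 (SE, limma adjusted p = 0.000189), and the inhibitory Siglece by -1.37 ± 0.25 (SE, limma adjusted p = 0.0083), the 2 calls among 9 such lectins. St8sia4, which builds polysialic acid, differed by -1.17 ± 0.188 (SE, limma adjusted p = 0.00266). Of 6 oxidase genes, 2 were called: the subunit Ncf1 differed by -0.53 ± 0.0886 (SE, limma adjusted p = 0.00397) and the GTPase Rac2 by -0.66 ± 0.109 (SE, limma adjusted p = 0.00331), while Cybb and Cyba differed by -0.20 and 0.01. Tmem176a and Tmem176b, a pair of membrane proteins of myeloid cells, differed by -1.57 ± 0.26 (SE, limma adjusted p = 0.00339) and -1.16 ± 0.191 (SE, limma adjusted p = 0.00331). All 7 of these genes were called in each of the 8 fits without 1 array. Without the arrays numbered 1, Siglece (limma adjusted p = 0.173), Ncf1 (0.0691), Rac2 (0.0529), Tmem176a (0.126) and Tmem176b (0.124) were not called. Siglece also lost its call with only the 8 arrays (0.0744), and Tmem176a and Tmem176b with the term for sex-linked transcripts (0.0573 and 0.0545). With that term and the block together, or with only the arrays that have more Xist than Kdm5d, none of the 7 was called.

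Fewer genes were higher in KO cells. Slc40a1, the iron exporter ferroportin, had the largest rise. It read 6.82, 7.48, 8.07 and 8.39 in WT arrays 1 to 4 and 9.98, 9.81, 10.17 and 9.78 in KO arrays 1 to 4. WT arrays spread over 1.57 log2 units and KO arrays over 0.39, and the difference was 2.24 ± 0.241 (SE, limma adjusted p = 2.96e-05), a 4.74-fold rise. It was 2.0 with the term for sex-linked transcripts (adjusted p = 0.00285). Of the other 15 iron genes, the importer Slc11a2 fell (-0.46 ± 0.106 SE, limma adjusted p = 0.0455), a call lost without WT array 1, 2 or 3 and without KO array 1, 3 or 4 (highest adjusted p 0.179, without WT array 2). Ftl1 and Fth1, which make ferritin, differed by 0.02 and 0.03.

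Secreted growth and matrix factors held 4 of the rises and 0 falls among 32 measured genes, whose median was 0.032. Of all genes 0.14% were called higher and 0.863% lower. Dkk2, a Wnt antagonist, read 7.05, 7.36, 7.16 and 7.90 in WT arrays 1 to 4 and 8.81, 9.07, 8.06 and 8.54 in KO arrays 1 to 4, and rose by 1.25 ± 0.192 (SE, limma adjusted p = 0.00173). Its call was lost without the arrays numbered 1 (limma adjusted p = 0.0746) and with the sex-linked term and the block together (0.13). Thbs1, the matrix protein thrombospondin, rose by 1.22 ± 0.24 (SE, limma adjusted p = 0.0145), Kitl, the ligand of the receptor Kit, by 0.87 ± 0.117 (SE, limma adjusted p = 0.000397), and Plau, the urokinase protease, by 0.84 ± 0.187 (SE, limma adjusted p = 0.0367). Kitl read 7.22, 7.56, 7.29 and 7.43 in WT arrays 1 to 4 and 8.07, 8.19, 8.11 and 8.62 in KO arrays 1 to 4. KO array 4 was the highest of all, and Kitl was the only higher gene called in every alternative fit that tested it (21, as it was too dim for the filtered fit). The call of Thbs1 was lost without KO array 3 (adjusted p = 0.0622) or WT array 2, and that of Plau without WT array 1, 2 or 3 or KO array 1, 2 or 3 (highest 0.143, without WT array 1).

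Further rises came from enzymes and receptors of the cell surface and from signalling genes. Entpd1, the CD39 enzyme that breaks down extracellular ATP, rose by 0.91 ± 0.185 (SE, limma adjusted p = 0.0186), Cd36, a scavenger receptor for oxidised lipid, by 0.79 ± 0.167 (SE, limma adjusted p = 0.024), Sulf2, which trims heparan sulfate, by 0.79 ± 0.134 (SE, limma adjusted p = 0.00419), and Neo1, the receptor neogenin, by 0.89 ± 0.173 (SE, limma adjusted p = 0.014). The phosphodiesterase Pde3b, the ubiquitin ligase Cblb and the condensin subunit Ncapg2 rose by 0.88, 0.74 and 0.93, and Tspan32, Tmem65 and Gpr176 by 0.86, 0.75 and 0.72. Leaving out WT array 1 or KO array 3 lost the call of each of Entpd1, Cd36, Neo1, Pde3b, Cblb, Ncapg2, Tspan32 and Gpr176, and other arrays lost some of them too, with highest adjusted p of 0.0849, 0.104, 0.0601, 0.166, 0.131, 0.134, 0.0916 and 0.0643, while Sulf2 and Tmem65 were called in all 8 such fits. With only the 8 unstimulated arrays Sulf2 (0.0557) and Tmem65 (0.0784) were not called, nor were they without the arrays numbered 1 (0.106 and 0.131), and Sulf2 was not called with the term for sex-linked transcripts (0.0798). With arrays centred on their medians 18 genes in place of 28 were called higher. Of 17 scavenger and clearance receptors, Cd36 was the 1 call.

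Some lists of basic cell function held no calls. While 9705 of all 19937 genes lay below 0, 19 of 21 cell cycle genes lay above 0 and 0 were called (median 0.295). Their mean level was 7.47, 7.88, 7.92 and 7.96 in WT arrays 1 to 4 and 7.75, 8.02, 8.33 and 8.12 in KO arrays 1 to 4, so the genotypes overlapped. Mki67 and Pcna differed by 0.46 and 0.38. Cholesterol synthesis (14 genes, median -0.208), the respiratory chain (16 genes, -0.074), endoplasmic reticulum stress (13 genes, -0.036), LXR targets (12 genes, 0.037) and NRF2 targets (11 genes, 0.068) had 0 calls each in limma. At an unadjusted p under 0.05 they had 3, 1, 0, 1 and 1 members, and the cell cycle list 5. A p that misses the threshold does not show that these genes were equal.

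**Figure D4:**
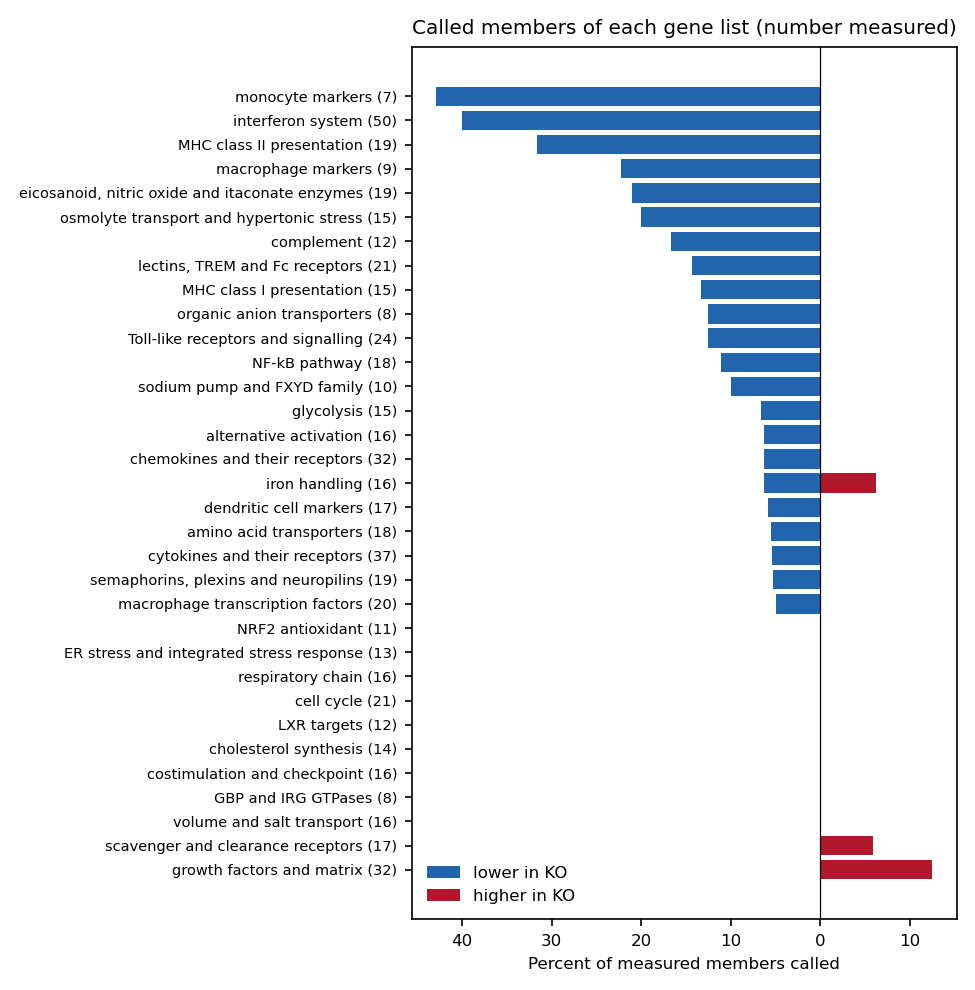
Percent of the measured members of each gene list shown that were called lower (blue, left) and higher (red, right) in unstimulated KO cells, with the number measured in brackets. Lists without calls that are left out are the sex-linked transcripts and the markers of B, T and NK, neutrophil, mast, stromal, erythroid and osteoclast cells. Some genes are on more than 1 list. Monocyte markers (3 of 7), the interferon system (20 of 50) and MHC class II (6 of 19) hold the highest shares of lower genes.

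Some called genes were neighbours on the chromosome. Among the 200, 15 pairs were next to each other in the order of tested genes (28 genes), 13 of them in the same direction, counted on the gene order of RefSeq's GRCm38.p6 table. On chromosome 17 the pairs were H2-Ab1 with H2-Aa and H2-Aa with H2-Eb1, on chromosome 11 Slfn1 with Slfn4 and Slfn4 with Slfn3, and on chromosome 19 Ifit2 with Ifit3. Usp18 and Slc6a12, on chromosome 6, had 1 tested gene between them. The phospholipase genes Plcb1 and Plcb4 were neighbours that differed in opposite directions (0.41 and -1.32), the call of Plcb1 being lost without KO array 1, among others (adjusted p = 0.176). The X chromosome held 6 lower and 1 higher of its 739 genes (0.947%, against 1% of all genes), and 0 of 9 Y-linked genes were called.

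The KO and WT means of stimulated cells come from arrays that enter none of the differences above. These arrays did share the estimate of the spread and the choice of probe set with them, and an unstimulated and an LPS array of 1 number may come from 1 culture. They also shared the split in sex-linked transcripts. With LPS, Xist differed by -4.55 and the 3 Y-linked genes measured by a median of 2.715. A difference met again with LPS therefore cannot tell genotype from this split. With LPS, 609 genes differed between KO and WT (3.05%), 251 lower (1.26%) and 358 higher (1.8%). Of the 200 genes, 40 were among them, which is 20% of the 200 and 6.57% of the 609. Of these 40, 33 were lower and 6 higher in both states, and 5430427O19Rik was lower without and higher with LPS. With the replicate block, 68 of 327 genes were called in both. The 172 lower genes had a median difference of -0.14 with LPS, with 118 below 0, and the 28 higher genes 0.17, with 26 above 0, against -0.01 over all genes.

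The osmolyte carriers were also lower in KO cells with LPS. Slc6a12 read 10.38, 10.02, 10.58 and 10.23 in WT arrays 1 to 4 with LPS and 6.87, 6.62, 7.31 and 7.06 in KO arrays 1 to 4, a difference of -3.34 ± 0.181 (SE, limma adjusted p = 5.75e-09), and Fxyd2 differed by -3.07 ± 0.152 (SE, limma adjusted p = 2.34e-09). Neither difference was shown to change with LPS (limma adjusted p = 0.963 and 0.113 for the difference of the differences). Slc5a3 and Slc38a2 were also called, at -0.82 ± 0.17 (SE, limma adjusted p = 0.0109) and -0.93 ± 0.222 (SE, limma adjusted p = 0.0263). For Slc5a3 the difference shrank by 1.17 ± 0.241 (limma adjusted p = 0.0218). Class II genes split: Ciita read 6.88, 6.8, 7.13 and 7.23 in WT arrays 1 to 4 with LPS and 7.35, 7.31, 7.44 and 7.33 in KO arrays 1 to 4, so that its difference was 0.34 ± 0.15 (SE, limma adjusted p = 0.363), a change of 2.22 ± 0.212 against unstimulated cells (adjusted p = 5.32e-05), while H2-Aa and H2-Eb1 remained lower (-1.41 and -1.45; adjusted p = 0.00069 and 0.000784).

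Interferon genes no longer stood lower as a group. The median difference of the 50 genes was 0.099 with LPS, where 2 were lower and 2 higher. Usp18 read 12.34, 12.49, 12.51 and 12.37 in WT arrays 1 to 4 with LPS and 12.19, 12.23, 12.36 and 12.46 in KO arrays 1 to 4, a difference of -0.12 ± 0.182 (SE, limma adjusted p = 0.983). Its genotype difference changed by 1.49 ± 0.257 (adjusted p = 0.0103). Over the 200 genes, the difference between the genotype effects was called for 65, against 1.29% of all genes. Of these, 63 were lower genes, whose difference was nearer to 0 or above it with LPS in all 63. This test shares the unstimulated arrays that chose the 200 genes, so the count is a description.

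Other genes were called in both states. Arhgef6 differed by -1.73 ± 0.147 (SE, limma adjusted p = 3.13e-06), Cxcl13 by -2.05 ± 0.316 (SE, limma adjusted p = 0.000946), Slfn4 by -1.62 ± 0.225 (SE, limma adjusted p = 0.000419) and Pla2g4a by -1.05 ± 0.16 (SE, limma adjusted p = 0.000856). Among the rises, Kitl differed by 0.71 ± 0.117 (SE, limma adjusted p = 0.00167), Sulf2 by 1.02 ± 0.134 (SE, limma adjusted p = 0.000241) and Entpd1 by 0.87 ± 0.185 (SE, limma adjusted p = 0.0128), whereas Slc40a1 differed by 0.60 ± 0.241 (SE, limma adjusted p = 0.288), a change of -1.64 ± 0.341 (adjusted p = 0.0228). Slc40a1 read 5.58, 5.25, 5.80 and 5.59 in WT arrays 1 to 4 with LPS and 6.42, 6.06, 6.31 and 5.84 in KO arrays 1 to 4, so that all 8 LPS arrays lay below every unstimulated array.

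**Figure D5:**
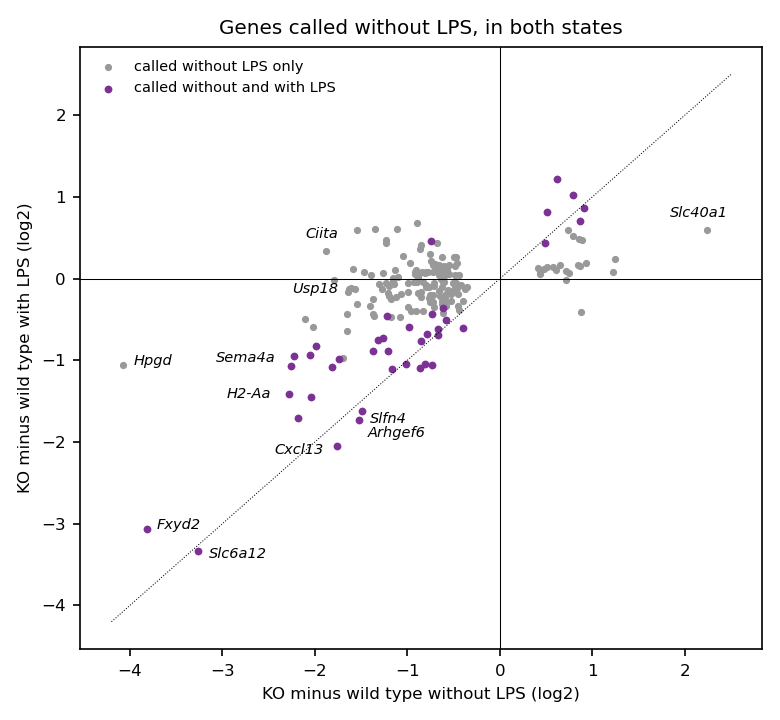
Log2 difference of KO minus WT without LPS (x axis) and with LPS (y axis) for the 200 genes called without LPS, purple where also called with LPS (40 genes). The dotted line marks equal differences. Fxyd2, Slc6a12 and Arhgef6 lie near the line, while Ciita, Usp18 and Hpgd lie closer to 0 on the y axis.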

How the data were processed

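Total RNA of 16 macrophage samples was measured on Affymetrix MoGene 1.0 ST arrays of 1 colour, 4 per genotype and treatment. The deposited values are log2 levels made with RMA, per the submitters' processing notes. The sources used here give neither its version nor its settings. Of 34760 probe sets, 21640 have 1 gene in the platform annotation, 1321 have several and 11799 are unnamed here. Each of 19937 genes was taken by its brightest probe set over all arrays. Arrays give no read depth, so their number limits the precision.

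Group means were fitted to all 16 arrays (limma 3.58.1 in R 4.3.3, 12 residual degrees of freedom), and p-values were adjusted by Benjamini-Hochberg over all genes. A call is an adjusted p under 0.05. The fit was tested on simulated data. Nfat5 was tested alone by an exact permutation test.

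The titles number the arrays 1 to 4 in each group. Deviations from the group means of same-numbered unstimulated WT and KO arrays correlated by 0.35, 0.44, 0.16 and 0.36, all over 0.1, so the number was taken as a pairing of these arrays and the block as an alternative. Unstimulated and LPS arrays of number 1 correlated by 0.05 (WT) and -0.06 (KO), and those of numbers 2 to 4 by 0.14 to 0.56.

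Genes are named by size among called genes with no overlap (15 falls and 15 rises), by the smallest p on each list (up to 4), or as stated. Some were left out for length. Others not called are named as well-known members of their list, chosen with their values known. Members and lists were chosen with earlier results of these data known. Alternatives changed the arrays, block, scaling, probe set rule, filter, variance model and a term for sex-linked transcripts. Chromosomes and gene order come from RefSeq's gene table, and promoters from RefSeq on GRCm38.p6 (15562 genes matched).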

Additional observations from a re-analysis of the deposited data

Results flagged for a closer look

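Within the groups of 4 unstimulated arrays, 21 of the 294 groups tested (147 named genes, WT and KO apart) had 1 array far from the other 3. The measure is the gap to the nearest array over the whole range, and chance passes the limit in about 1 in 20 groups. Among called genes the array stood apart in WT cells for Ndrg2 (0.963, array 1 high), Nfkbiz (0.925, array 2 high), Med22 (0.905, array 2 low), Tnfsf10 (0.875, array 1 high), Cblb (0.863, array 4 high), Clec5a (0.853, array 4 low) and Ccr2 (0.851, array 3 low). In KO cells it did so for H2-DMa (0.955, array 1 low), Nfkbiz (0.947, array 1 low), Dram1 (0.943, array 2 high), Shb (0.850, array 3 high) and Cblb (0.8293, array 4 high). Among genes not called, these were Rfx5 (0.980), Zbtb46 (0.924), Cyba (0.854), Il6 (0.853) and Ftl1 (0.852) in WT cells, and Fth1 (0.906), Flt3 (0.884), Hp (0.867) and Hspa1a (0.852) in KO cells.

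The KO minus WT difference itself differed between LPS and unstimulated arrays for 39 named genes (limma interaction, adjusted p under 0.05 over all genes). The values below are the log2 difference with LPS less that without. Antigen presentation and interferon genes were nearer to 0 or above it with LPS: Ciita by 2.22, Ifit2 by 2.12, Ifit3 by 1.96, Ifit1 by 1.70, H2-DMa by 1.49, Usp18 by 1.49, Tap1 by 0.98, Ifih1 by 0.88, Ddx58 by 0.80 and H2-M3 by 0.69. The same held for receptors and ligands: Tnfsf10 by 1.72, Clec10a by 1.47, Cd72 by 1.44, Tlr9 by 1.25, Ccr2 by 1.24, Sema4a by 1.20, Il21r by 1.06 and Cd14 by 0.99. Among carriers and channels the values were 1.33 for Kcnj2, 1.28 for Slco4a1, 1.17 for Slc5a3, 1.08 for Tmem38b, 0.83 for Slc2a6 and 0.65 for Slc11a2. For Dram1, Ndrg2, Med22, Alox5, Tmem176b and Zdhhc14 they were 1.23, 1.22, 1.19, 1.12, 1.12 and 1.12. For Borcs6, Shb, Nf2, Btg2 and Fam174a they were 0.89, 0.89, 0.86, 0.76 and 0.70. The difference moved down with LPS for Nos2 by -2.29, Il6 by -1.71, Slc40a1 by -1.64 and Pde3b by -1.29, of which Nos2 and Il6 were not called in unstimulated cells.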

How the results depend on the processing

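Counts of calls moved with the arrays and terms in the fit, while no called gene changed direction. Some named genes that were not called did, such as Rela (-0.28 to 0.15) and Ftl1 (-0.22 to 0.73). The 200 calls became 91 with only the 8 unstimulated arrays, 327 with the replicate block, 359 with the term for arrays with more Kdm5d than Xist, 84 with that term and the block, 58 with only arrays with more Xist than Kdm5d, 65 without the arrays numbered 1, 94 at an adjusted p under 0.01 and 116 to 209 without 1 array. The 172 lower calls became 80, 64, 47, 60 and 87 with the 8 arrays, the term and block, the Xist-high arrays, no arrays numbered 1 and the stricter p, and 101 to 175 without 1 array. The 28 higher calls became 11 with the 8 arrays, 71 with the block, 50 with the block in the 8 arrays, 18 with median centring, 59 with array weights, 156 with the sex-linked term, 11 with the Xist-high arrays, 51 and 5 without the arrays numbered 4 and 1, 7 at the stricter p, and 11 to 45 without 1 array. The 20 interferon calls became 2 with the 8 arrays, 5 with the block in them, 12 with quantile normalization, 4 with the sex-linked term, 0 with it and the block, 0 with the Xist-high arrays, 2 without the arrays numbered 1, 4 at the stricter p, and 4 to 22 without 1 array. The counts of 3 osmolyte and 6 class II calls stayed at 3 and 6 in each fit without 1 array. Nfat5 moved from -0.36 to -0.39 with median centring, where its exact p was 0.0286. Genes called both without and with LPS went from 40 to 68 with the block, under which all 200 calls remained. The causes of these changes were not tested, beyond the smaller number of arrays in the fits that leave arrays out. Of 90 named calls, 33 held in every alternative that tested them, and of 57 named genes not called, 6 were called in at least 1. Medians over all genes stayed within -0.0300 and 0.0060 under the scalings, and array number, not depth, limits the precision.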
